A study of Mus musculus with 17 samples.

Results

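Transcripts of 10 genes of the cell division cycle were followed in RNA of the mouse diaphragm: Mki67, Top2a, Ccna2, Ccnb1, Ccnb2, Cdk1, Birc5, Aurkb, Rrm2 and Mcm5. They were chosen by symbol, as genes whose transcripts mark dividing cells, and all 10 were found among the 47643 gene symbols of the expression table. Diaphragm muscle, of which a part of each was kept for RNA, came from 17 male C57BL/6J mice aged 4 months, 1 RNA sample per mouse. Of these, 5 mice formed the Control group and 5 the Control + rFibcd1 group, while 3 had the tumor alone (LLC) and 4 the tumor with the protein (LLC + rFibcd1). Both LLC groups carried subcutaneous flank tumors grown from Lewis lung carcinoma cells, an established mouse tumor line used to induce cancer cachexia, the wasting of muscle during cancer. rFibcd1 is a recombinant form of the secreted protein Fibcd1, given by intraperitoneal injection, and the Control and LLC groups received mock injections of albumin in buffered saline, so every mouse was injected. No transgene or deletion is named for any group. The comparisons ask whether the tumor changed these transcripts in a distant muscle and whether rFibcd1 changed them with or without the tumor.

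A cell that divides first copies its DNA in S phase and then separates the copies in mitosis. Cyclins switch on cyclin-dependent kinases (CDKs) at set points of this cycle, and inhibitors of the Cdkn families hold the kinases in check. Myofibers, the multinucleated contractile cells of muscle, have left the cycle for good. Satellite cells, the muscle stem cells, are mostly at rest in uninjured adult muscle, while cells of the immune system can divide when they are activated. In muscle tissue, RNA from all of these cells is measured together, so fewer cells of a type and less RNA per cell cannot be told apart. The samples were muscle by their contents: the summed level of 9 myofiber genes lay between 49510 and 63780 transcripts per 1000000 (TPM, in which reads are divided by gene length and scaled to a common sum).

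All 10 genes were scarce, and all 10 were highest on average in LLC. Mean levels in Control ran from 0.235 TPM (Ccnb1) to 2.22 TPM (Rrm2), and in LLC from 0.787 TPM (Ccnb1) to 4.41 TPM (Mcm5). The ratio of the LLC mean to the Control mean lay between 1.96 for Rrm2 and 3.67 for Mki67, with a median of 2.96. For each of the 10 genes every LLC mouse lay above every one of the 10 tumor-free mice, a pattern found for 25% of the 13305 genes tested. Against Control alone, the groups likewise did not overlap for any of the 10 genes, and 33.6% of genes tested showed this in the same direction. Differences and their standard errors (SE) below are on the log2(TPM + 1) scale, which understates the change of genes at such low levels. They were tested with limma, with p-values adjusted over all genes tested.

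**Figure D1:**
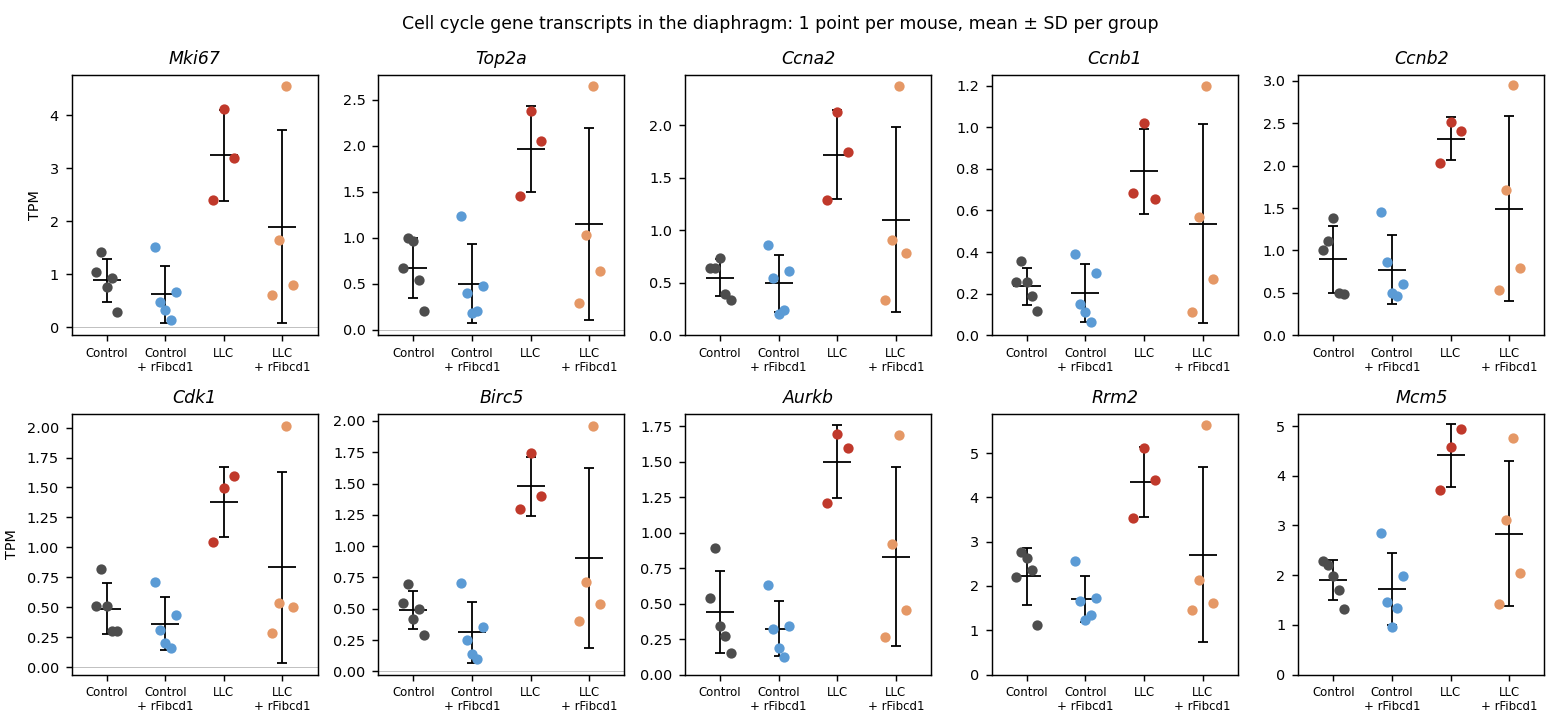
Level of each of the 10 cell cycle genes in TPM (vertical axis, 1 panel per gene) in the 4 groups, with 1 point per mouse, a horizontal bar for the mean and whiskers for the SD. The 3 LLC mice sit above all tumor-free mice in every panel, and LLC + rFibcd1 replicate 3 sits apart from the other 3 mice of its group.

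A first pair of genes supplies DNA replication. Mcm5 (chr8:75109569-75128439, plus strand, GRCm38) encodes a subunit of the helicase that opens the DNA double strand. Its level was 2.29, 2.20, 1.99, 1.71 and 1.32 TPM in Control and 2.85, 1.47, 0.959, 1.35 and 1.98 TPM in Control + rFibcd1. In LLC it was 3.71, 4.58 and 4.94 TPM, and in LLC + rFibcd1 1.42, 3.11, 4.76 and 2.04 TPM. The LLC mice were the highest together with replicate 3 of LLC + rFibcd1, while replicates 1 and 4 of that group lay within the tumor-free range and replicate 2 above it. LLC exceeded Control by 0.90 ± 0.25 (SE, adjusted p = 0.0159). Rrm2 (chr12:24708241-24714146, plus strand) encodes the small subunit of ribonucleotide reductase, which makes the building blocks of DNA. Its level was 2.21, 2.78, 2.62, 2.35 and 1.12 TPM in Control and 2.57, 1.66, 1.23, 1.35 and 1.72 TPM in Control + rFibcd1. In LLC it was 3.54, 5.11 and 4.38 TPM, and in LLC + rFibcd1 1.45, 2.13, 5.64 and 1.61 TPM. Of the LLC + rFibcd1 mice 3 lay within the Control range, and the remaining mouse was the highest of all 17. The difference between LLC and Control was 0.75 ± 0.28 (SE, adjusted p = 0.0478), the nearest to the threshold of 0.05 among the 9 of these genes in the fit.

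Mki67 (chr7:135689784-135716361, minus strand) encodes Ki-67, the protein most used to stain proliferating cells. It was at 1.03, 1.41, 0.759, 0.921 and 0.292 TPM in Control and at 1.5, 0.471, 0.322, 0.134 and 0.654 TPM in Control + rFibcd1. LLC mice had 2.40, 4.12 and 3.20 TPM, and LLC + rFibcd1 mice had 0.600, 1.64, 4.54 and 0.790 TPM. The spread within the tumor-free mice was wide, with 11.2 times as much in the highest as in the lowest mouse, yet no tumor-free mouse reached the lowest LLC mouse. The difference between LLC and Control was 1.18 ± 0.35 (SE, adjusted p = 0.02), the largest of the 10 genes. Top2a (chr11:98992943-99024189, minus strand) encodes topoisomerase II alpha, which untangles replicated chromosomes. It was at 0.667, 0.994, 0.964, 0.546 and 0.202 TPM in Control and at 1.24, 0.405, 0.182, 0.199 and 0.480 TPM in Control + rFibcd1. LLC mice had 1.45, 2.38 and 2.06 TPM, and LLC + rFibcd1 mice had 0.286, 1.04, 2.65 and 0.639 TPM. Replicate 1 of Control + rFibcd1 stood apart from its group and came near the lowest LLC mouse. LLC exceeded Control by 0.84 ± 0.29 (SE, adjusted p = 0.0370).

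Cyclins A2, B1 and B2 and the kinase Cdk1 drive the cell from S phase into mitosis. Ccna2 (chr3:36564865-36572150, minus strand), cyclin A2, acts in S and G2 phase, and its gene overlaps Exosc9 on the opposite strand, so the levels of both can hold reads of the other. Its level was 0.643, 0.641, 0.737, 0.392 and 0.335 TPM in Control and 0.861, 0.548, 0.206, 0.238 and 0.614 TPM in Control + rFibcd1. It was 1.29, 2.13 and 1.75 TPM in LLC and 0.334, 0.909, 2.38 and 0.787 TPM in LLC + rFibcd1. All LLC mice exceeded 1 TPM and no tumor-free mouse did. The difference was 0.81 ± 0.23 (SE, adjusted p = 0.0189). Ccnb1 (chr13:100778650-100786570, minus strand), cyclin B1, starts mitosis with Cdk1 and was the scarcest of the 10. It was at 0.255, 0.357, 0.258, 0.190 and 0.118 TPM in Control and at 0.392, 0.149, 0.114, 0.0622 and 0.297 TPM in Control + rFibcd1. LLC mice had 0.684, 1.02 and 0.657 TPM, and LLC + rFibcd1 mice had 0.111, 0.568, 1.20 and 0.269 TPM. Only 2 mice reached 1 TPM, so Ccnb1 fell below the filter of at least 1 TPM in at least 3 mice and had no place in the fit across genes. An exact permutation test of LLC against Control, two-sided, gave a difference of 0.53 with p = 0.0179, the smallest p that 3 against 5 mice can give.

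Ccnb2 (chr9:70407692-70421547, minus strand), cyclin B2, is the second mitotic cyclin. It was at 1.01, 1.11, 1.38, 0.493 and 0.484 TPM in Control and at 1.45, 0.866, 0.494, 0.462 and 0.603 TPM in Control + rFibcd1. LLC mice had 2.03, 2.51 and 2.41 TPM, and LLC + rFibcd1 mice had 0.531, 1.71, 2.95 and 0.788 TPM. The LLC mice were close together and above all tumor-free mice, and the difference from Control was 0.83 ± 0.27 (SE, adjusted p = 0.0277). Cdk1 (chr10:69335146-69352938, minus strand) encodes the kinase that both B cyclins activate. Its level was 0.508, 0.817, 0.509, 0.302 and 0.300 TPM in Control and 0.709, 0.308, 0.198, 0.163 and 0.434 TPM in Control + rFibcd1. In LLC it was 1.05, 1.49 and 1.60 TPM, and in LLC + rFibcd1 0.283, 0.533, 2.02 and 0.500 TPM. Of the LLC + rFibcd1 mice 3 were no higher than the highest Control mouse, and replicate 3 exceeded every LLC mouse. LLC exceeded Control by 0.68 ± 0.23 (SE, adjusted p = 0.0313).

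Aurkb and Birc5 encode 2 parts of the chromosomal passenger complex, the kinase Aurora B and its partner survivin, which correct the attachment of chromosomes to the spindle. Aurkb (chr11:69045647-69051664, plus strand) was at 0.540, 0.888, 0.340, 0.272 and 0.155 TPM in Control and at 0.632, 0.320, 0.190, 0.127 and 0.343 TPM in Control + rFibcd1. LLC mice had 1.21, 1.69 and 1.60 TPM, and LLC + rFibcd1 mice had 0.265, 0.921, 1.69 and 0.452 TPM. No tumor-free mouse reached 1 TPM and every LLC mouse did, with a difference from Control of 0.81 ± 0.22 (SE, adjusted p = 0.0147). Birc5 (chr11:117849251-117855743, plus strand) was at 0.550, 0.699, 0.417, 0.494 and 0.292 TPM in Control and at 0.705, 0.254, 0.141, 0.0991 and 0.356 TPM in Control + rFibcd1. LLC mice had 1.30, 1.75 and 1.40 TPM, and LLC + rFibcd1 mice had 0.401, 0.716, 1.96 and 0.541 TPM. Both partners thus had the same order of groups, and Birc5 differed between LLC and Control by 0.74 ± 0.21 (SE, adjusted p = 0.0168).

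These levels rest on few reads. Depth was estimated from the spacing of low values at 50.6 to 54.5 reads per mouse in units of 1000000. At that depth Ccnb1 stood for about 7 to 130 reads, Aurkb for 10 to 128, Birc5 for 9 to 172 and Ccnb2 for 18 to 116, whereas Mki67 stood for 36 to 1176. Reads of single mice at the low end therefore carry a large counting error, and those of the LLC mice a smaller one.

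The promoters are shown because the 10 transcripts moved together from mouse to mouse. Windows from 250 bases before to 50 bases after the start were given by RefSeq on GRCm38.p6 for 8 of the 10 genes, without Ccna2 and Aurkb. They were searched on both strands for the CCAAT box, bound by NF-Y, for the cell cycle genes homology region (CHR), bound by the DREAM and MuvB complexes, in its form TTTGAA or its variant TTCGAA, and for the E2F core in the form TTCCCGC or in its variant TTGGCGC. Below are the 250 bases before the start of 4 of them, 5′ to 3′ on the gene's own strand. Capitals mark each match, which reads as the reverse complement where it lies on the opposite strand. Mki67 and Top2a hold both CCAAT and CHR letters, Ccnb2 holds 3 CCAAT boxes close to its start, and Mcm5 holds CCAAT with an E2F core.
Mki67, chr7:135716380-135716629, minus strand: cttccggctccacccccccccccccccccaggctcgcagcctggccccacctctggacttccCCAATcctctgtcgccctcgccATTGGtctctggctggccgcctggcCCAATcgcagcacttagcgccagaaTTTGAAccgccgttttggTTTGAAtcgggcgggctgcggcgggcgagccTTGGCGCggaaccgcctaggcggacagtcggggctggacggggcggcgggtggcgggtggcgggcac
Top2a, chr11:99024190-99024439, minus strand: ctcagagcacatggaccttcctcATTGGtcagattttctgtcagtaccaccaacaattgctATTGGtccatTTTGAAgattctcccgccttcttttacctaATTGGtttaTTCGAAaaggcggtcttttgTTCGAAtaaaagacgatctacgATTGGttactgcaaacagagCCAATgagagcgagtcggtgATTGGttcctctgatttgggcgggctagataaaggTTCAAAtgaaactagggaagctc
Ccnb2, chr9:70421555-70421804, minus strand: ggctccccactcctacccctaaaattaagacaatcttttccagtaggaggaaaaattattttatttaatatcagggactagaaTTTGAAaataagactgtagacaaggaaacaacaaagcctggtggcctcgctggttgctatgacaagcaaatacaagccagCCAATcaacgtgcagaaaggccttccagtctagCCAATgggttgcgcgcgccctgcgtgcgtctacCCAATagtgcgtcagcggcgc
Mcm5, chr8:75109259-75109508, plus strand: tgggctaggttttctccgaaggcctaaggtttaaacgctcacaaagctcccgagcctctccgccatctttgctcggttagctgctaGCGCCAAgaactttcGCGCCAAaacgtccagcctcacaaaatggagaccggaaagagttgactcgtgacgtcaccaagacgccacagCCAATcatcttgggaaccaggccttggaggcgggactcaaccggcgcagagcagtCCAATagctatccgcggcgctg
CCAAT was found in 7 of the 8 windows, against 37.4% of all 32851 promoter windows of this length, and 6 of the 8 held at least 2 copies, against 11.7%. Top2a held 6 copies. A CHR form was found in Mki67, Top2a, Ccnb2 and Cdk1, each together with CCAAT, a combination present in 7.5% of all windows. TTGGCGC was found in Mki67, Ccnb1, Cdk1 and Mcm5, against 2.5% of all windows, and in Ccnb1 it overlaps a CCAAT box by 4 bases. TTCCCGC was found in none of the 8, against 4.6%, and the Birc5 window held none of the 5 sets of letters. A match is a run of letters and was not tested for binding.

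With LLC set against Control, 9 of the 9 genes tested rose, where 29.7% of the 13305 genes tested rose. The count of 9 says little by itself, because Ccna2, Cdk1, Birc5 and Aurkb reached 1 TPM in no tumor-free mouse and Top2a in 1, so that they entered the test through the tumor-bearing mice. A filter on the mean of all 17 mice (at least 0.1 TPM, 16678 genes), which does not look at the groups and was added after the data were seen, kept all 10 genes. There, 9 of 10 rose, against 26.3% of genes, with adjusted p = 0.0285 for Ccnb1 and 0.0527 for Rrm2, which no longer passed. The median difference of the 10 was 0.81 and that of all 16678 genes 0.15. TPM share 1 sum, and mitochondrially encoded transcripts took 45.4 to 50.4% of it in tumor-free mice and 41.3 to 46.5% in tumor-bearing mice. The median of the 13305 genes was itself 0.16 higher in LLC than in Control, and of the 4759 genes called 3958 were higher. Median-ratio scaling brought that median to -0.01 and the split to 1914 higher of 3950 called, with 6 of the 9 cell cycle genes called and a median difference of 0.70. Quantile normalization left 3 of 9 called, a median difference of 0.49 and 1510 higher of 4685 genes called. All 9 differences stayed above 0 under each scaling.

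Single mice decided part of these calls. The count was 0 of 9 without LLC replicate 3, when 24 of 13195 genes (0.182%) were called in all, although all 9 then had an unadjusted p under 0.05, as did 33.9% of genes. It was 3 without LLC replicate 2, beside 31.9% of genes that rose, a count near that share. It was 5 without LLC replicate 1 (beside 13.3% of genes), Control replicate 4 (22%) or Control replicate 5 (20.2%). The remaining omissions left 7 to 9, beside 22 to 33.3% of genes that rose. With all 7 tumor-bearing mice set against the 10 tumor-free mice, 9 of 9 rose by 0.49 to 0.89, beside 38.8% of genes tested, and 10 of 10 under the filter on the mean, beside 34%. Without LLC replicate 3, 5 of 9 were called, beside 27% of genes that rose. Here the groups overlapped for every one of the 10 genes, through LLC + rFibcd1, and they did not overlap in this direction for 1.74% of genes. Ccnb1 was higher by 0.40 (exact permutation test, two-sided, p = 0.00365).

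**Figure D2:**
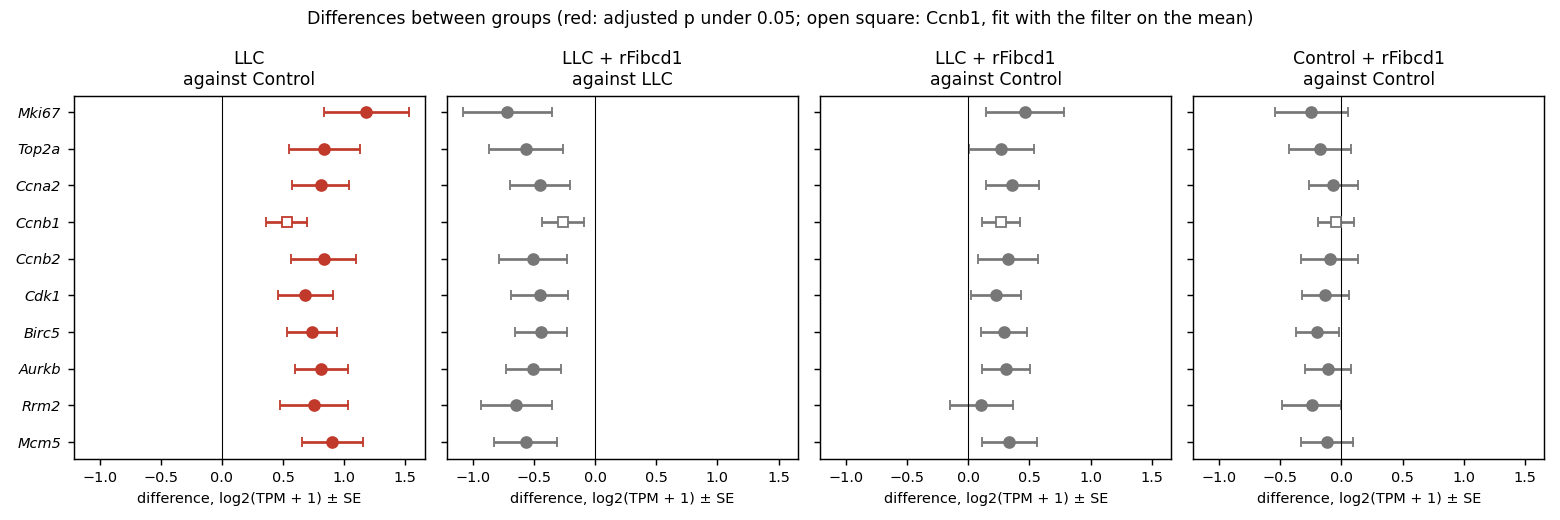
Differences between groups on the log2(TPM + 1) scale with SE as whiskers (horizontal axis) for the 10 genes (vertical axis), 1 panel per comparison. Red marks an adjusted p under 0.05, and Ccnb1 (open square) comes from the fit with the filter on the mean. LLC against Control is red throughout, with 1.18 for Mki67 as the largest value, and the other 3 comparisons are grey.

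rFibcd1 in tumor-bearing mice went with lower means but no call. Set against LLC, the LLC + rFibcd1 mean was 0.554 times as high for Aurkb and 0.681 times as high for Ccnb1, the ends of the range. The differences of the 9 genes tested lay between -0.44 (Birc5) and -0.72 (Mki67), with adjusted p from 0.212 to 0.259, and 0.113% of genes tested were called in either direction. Aurkb, Rrm2 and Mcm5 had an unadjusted p under 0.05, as did 22.7% of genes. The group was not uniform. In replicate 3 of LLC + rFibcd1 8 of the 10 genes exceeded every LLC mouse and the other 2 were within the LLC range. In replicates 1 and 4, in contrast, 7 and 9 of the 10 were within the Control range, and in replicate 2 8 of the 10 lay above Control but none reached LLC. Without replicate 3, 9 of 9 had an unadjusted p under 0.05, beside 25.9% of genes, the median difference went from -0.51 to -0.76, and 0 of 9 passed adjustment. Without replicate 1 the median was -0.35 and under quantile normalization, with all mice, it was -0.29, with 0 of 9 at an unadjusted p under 0.05 in both. The omission of replicate 3 is 1 of 17 that were run and was singled out after its values had been seen.

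LLC + rFibcd1 against Control gave differences of 0.11 (Rrm2) to 0.46 (Mki67), with 0 of 9 called (adjusted p from 0.363 to 0.849) and 3.08% of genes called. Their median was 0.31 with all mice, 0.07 without LLC + rFibcd1 replicate 3 and 0.48 without replicate 1, when 5 of 9 had an unadjusted p under 0.05 beside 22% of genes and 0 passed adjustment. rFibcd1 without a tumor gave differences of -0.06 (Ccna2) to -0.25 (Mki67) against Control, with 0 of 9 called, beside 0% of genes, and 0 at an unadjusted p under 0.05, beside 4.39%. In Control + rFibcd1 replicate 1, 7 of the 10 genes lay above Control, and 8 of replicate 4 lay below it. The interaction, which asks whether rFibcd1 acted differently with and without the tumor, lay between -0.24 (Birc5) and -0.47 (Mki67) with 0 of 9 called, beside 0% of genes, and 0 at an unadjusted p under 0.05, beside 8.58%. The median of the 9 interactions was -0.39 with all mice, -0.67 without LLC + rFibcd1 replicate 3, when 8 of 9 had an unadjusted p under 0.05 beside 12% of genes and 0 passed adjustment, and -0.21 without replicate 1 of that group.

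The 10 genes varied together from mouse to mouse, though the order of mice was not the same for each gene. Over the 17 mice Pearson's r between the log2(TPM + 1) values of the 45 pairs lay between 0.921 and 0.990, with a median of 0.959. After the group means were subtracted it lay between 0.851 (Ccnb2 and Birc5) and 0.981 (Mki67 and Birc5), with a median of 0.920, so mice of 1 group also differed in all 10 genes at once. The points share their libraries, and these values are descriptions. The summed level of the 10 genes was 4.62 to 11.9 TPM in Control, 4.03 to 12.9 in Control + rFibcd1, 18.7 to 26.8 in LLC and 5.69 to 29.8 in LLC + rFibcd1.

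Among all other genes tested, the most alike in pattern over the 17 mice was 2810417H13Rik (r = 0.991 with the mean of the scaled member values), followed by Cdc20 (0.980), an activator of the anaphase-promoting complex. The next 8 were Trim59, Cst7, Gimap4, Slamf6, H2-T10, Traf1, Ffar1 and Ms4a4c (r from 0.973 to 0.979), of which Slamf6 encodes a receptor of lymphocytes and Cst7 an inhibitor of proteases in immune cells. After the group means were subtracted, 2810417H13Rik (0.981), Ckap2l, Cdc20, Cst7 and Foxm1 led. Pax7, the transcription factor that defines satellite cells, had r = -0.414 over the 17 mice.

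Markers of immune cells moved with the cell cycle genes. All 10 of 10 B cell markers rose in LLC against Control, where 29.7% of all genes tested rose. Their summed level was 2.82 to 113.9 TPM in Control, 4.21 to 160.6 TPM in Control + rFibcd1, 264.6 to 337.8 TPM in LLC and 21.1 to 331.8 TPM in LLC + rFibcd1. The LLC range did not overlap either tumor-free group. All 10 of 10 T cell markers rose too (3.28 to 22.2 TPM in Control, 2.73 to 22.1 TPM in Control + rFibcd1, 36.8 to 59.2 TPM in LLC), as did 7 of 10 macrophage markers (162.4 to 281.3 TPM in Control, 377.7 to 464.5 TPM in LLC), although 1 Control + rFibcd1 mouse stood at 445.8 TPM. Of the T cell markers 5 (Cd3e, Cd4, Cd5, Cd8a and Cd8b1) reached 1 TPM in fewer than 3 tumor-free mice, so that they entered the test through the tumor-bearing mice. Under the filter on the mean the B cell, T cell and macrophage counts were again 10, 10 and 7 of 10, beside 26.3% of genes. Of 6 satellite cell and myoblast markers 4 were tested, none rose and Myod1 fell (by 0.39 ± 0.13, SE, adjusted p = 0.0360), and their summed level was 19.9 to 24.1 TPM in Control, 15.9 to 22.6 TPM in Control + rFibcd1, 16.8 to 18.2 TPM in LLC and 19.5 to 25.8 TPM in LLC + rFibcd1. The LLC range thus lay within that of Control + rFibcd1. None of these markers was at 0 in a whole group. Neutrophil markers had another order, with 5.17 to 17.3 TPM in Control, 5.31 to 80.7 TPM in Control + rFibcd1, 51.5 to 113.2 TPM in LLC and 57.5 to 215.6 TPM in LLC + rFibcd1, so that replicates 1 and 4 of the last group were high in them while most of the cell cycle genes lay within the Control range. Control + rFibcd1 replicate 3, among the lowest mice in the cell cycle genes, lay within the LLC range of these markers. Plasma cell markers summed to at most 280.4 TPM in tumor-free mice and to 311.6 to 498.4 TPM in LLC, and 3 of 6 rose. Of 5 NK cell markers 4 rose under the filter on the mean, beside 26.3% of genes. Of 5 erythroid markers 2 rose in LLC against Control, beside 29.7%, and all 5 did when the tumor-bearing mice were pooled, beside 38.8%. Granulocyte precursor markers summed to 0.355 to 1.82 TPM in Control, 0.559 to 8.23 TPM in Control + rFibcd1 and 6.14 to 7.18 TPM in LLC. Adipocyte markers had a median difference of 1.73 in LLC against Control, but 0 of 4 were called and the groups overlapped in their sum. Myofiber genes moved the other way, with 5 of 9 called lower in LLC against Control, beside 6.02% of genes, and a sum of 49510 to 52790 TPM in LLC, below the 56640 to 63780 TPM of all tumor-free mice. Fibroblast markers summed to 641.9 to 903.5 TPM in Control, 521.9 to 923.4 TPM in Control + rFibcd1 and 973.2 to 1021 TPM in LLC. Of these 6 markers 1 rose in LLC against Control, beside 29.7%. Of 7 endothelial markers 1 rose there, and 5 did when the tumor-bearing mice were pooled, beside 38.8%. The part of the T cell, neutrophil, plasma cell, NK cell, erythroid, granulocyte precursor, adipocyte, myofiber, fibroblast and endothelial markers in the cell cycle results was not tested. Of the germinal center B cell markers, Rgs13 stayed at or below 1.37 TPM in all mice.

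**Figure D3:**
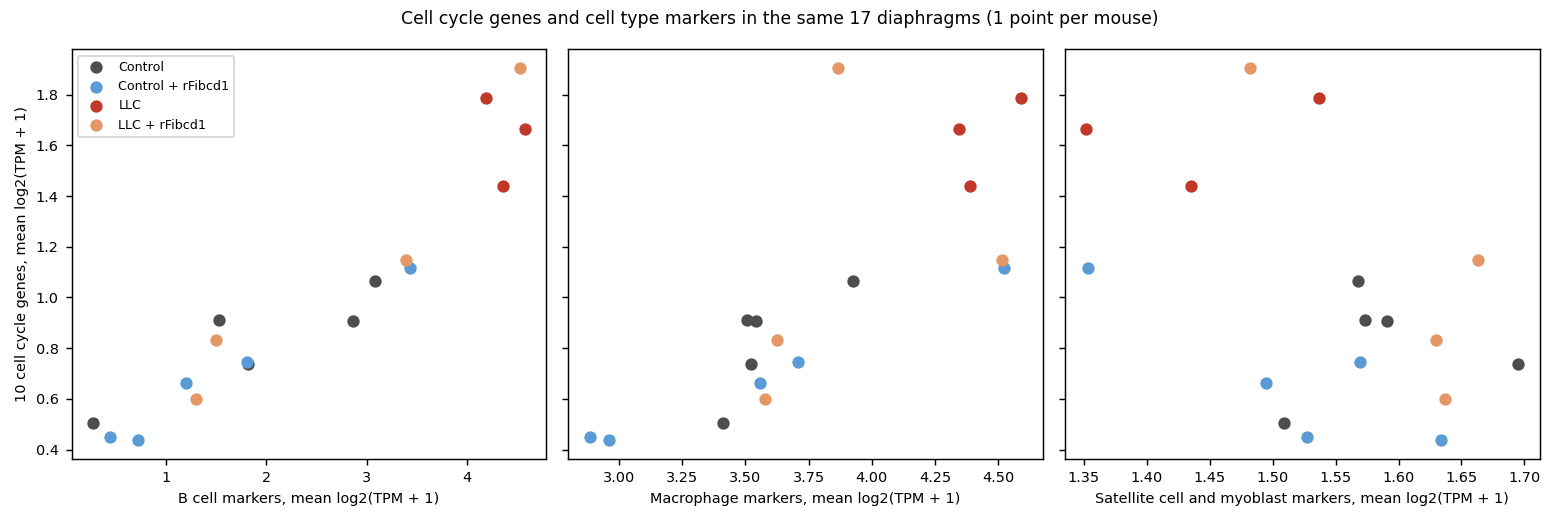
Mean log2(TPM + 1) of the 10 cell cycle genes (vertical axis) against that of the B cell, macrophage, and satellite cell and myoblast marker lists (horizontal axes), 1 point per mouse. The 4 mice highest in the cell cycle genes, with means of 1.44 to 1.91, are also the 4 highest in the B cell markers, and no such order is seen for the satellite cell markers.

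The same 4 mice, all 3 of LLC and LLC + rFibcd1 replicate 3, were highest in both the cell cycle genes and the B cell markers, and the same 3 tumor-free mice, Control replicate 5 and Control + rFibcd1 replicates 3 and 4, were lowest in both. This was not particular to B cells, since the T cell, plasma cell and NK cell markers had the same 4 highest and the same 3 lowest mice. Nor was it particular to these lists, since the first principal component, the main axis of variation among the samples, had the same mice at its ends. It was -54.41 to -40.05 in the 4 mice and 41.44 to 47.2 in the 3 mice. Those 3 mice also had the fewest genes at 1 TPM or more (11557 to 11798). Within groups, each step of 1 in the mean log2(TPM + 1) of the B cell markers went with a slope of 0.21 (Birc5) to 0.39 (Mki67) in the cell cycle genes. All 9 slopes were positive with an adjusted p from 2.26e-05 (Mcm5) to 0.005 (Ccna2), in a test across all genes that called 26.3% of them positive and had a median slope of 0.04. With the macrophage markers in their place, all 9 slopes were again positive, from 0.32 (Cdk1) to 0.69 (Mki67), against a median slope of 0.12. Mcm5 alone passed (slope 0.56, adjusted p = 0.0243), against 25.1% of genes. The others had an adjusted p from 0.0552 (Top2a) to 0.202 (Cdk1). With the satellite cell and myoblast markers 0 of 9 passed, against 0.00752% of genes, and all 9 slopes were negative, as was the median slope of all genes (-0.48). These slopes were added after the data were seen.

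With the B cell score in the fit beside the groups, the differences between LLC and Control were 0.04 (Rrm2) to 0.27 (Ccna2), with 0 of 9 called (adjusted p from 0.462 to 0.945) and 0.0526% of genes called. With the macrophage score, added after the data were seen, they were 0.34 to 0.59, with 0 of 9 called and 0% of genes. Since the LLC and Control mice did not overlap in either score, the group and the score cannot be told apart in these fits. LLC + rFibcd1 against LLC had a median difference of -0.08 with the B cell score and -0.26 with the macrophage score, in place of -0.51.

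**Figure D4:**
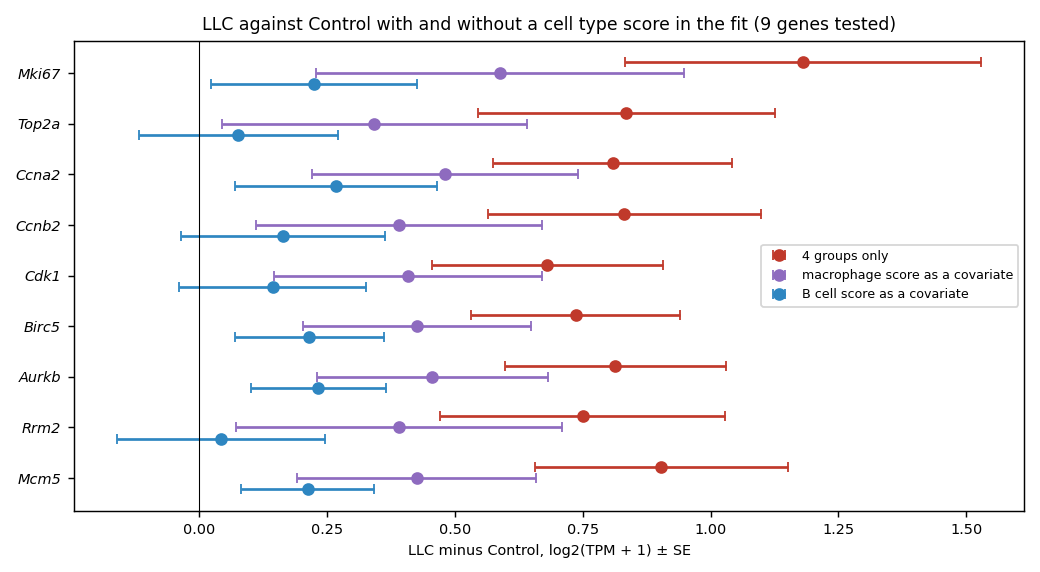
Difference between LLC and Control on the log2(TPM + 1) scale with SE as whiskers (horizontal axis) for the 9 genes tested (vertical axis), with the groups only (red), with the macrophage score (purple) and with the B cell score (blue) in the fit. The differences go from 0.68 to 1.18 with groups only to 0.04 to 0.27 with the B cell score.

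The rest of the cycle was read from 4 lists of genes. Of the 36 DNA replication genes 35 passed the filter on the mean, and in LLC against Control 19 rose and 0 fell, beside 26.3% of all genes that rose under this filter, with a median difference of 0.37 beside 0.15 over all genes. Mcm2, a helicase subunit like Mcm5, went from 4.13 ± 0.308 TPM (SD, n = 5) in Control to 5.84 ± 0.639 TPM (SD, n = 3) in LLC (difference 0.41 ± 0.12, SE, adjusted p = 0.0199). Pcna, the sliding clamp of the polymerases, went from 20.8 ± 2.12 to 27.1 ± 1.54 TPM (difference 0.37, adjusted p = 0.0175), and Tyms, thymidylate synthase, from 0.576 ± 0.133 to 1.18 ± 0.198 TPM (difference 0.47, adjusted p = 0.0112). For genes named from the 4 lists, the adjusted p come from the fit with the filter of at least 1 TPM in at least 3 mice. Tyms reached 1 TPM in 0 tumor-free and 4 tumor-bearing mice, so it entered that fit through the tumor-bearing mice. Rrm1, the large subunit of the same enzyme as Rrm2, was at 13.3 ± 1.22 TPM in Control and 13.5 ± 0.321 TPM in LLC (difference 0.03, adjusted p = 0.820). In TPM, which is per length, the mean level of Rrm1 was above that of Rrm2 in every group.

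Of the 58 mitosis genes all passed that filter, 43 rose and 0 fell, again beside 26.3% of all genes that rose, with a median difference of 0.43 beside 0.15. Cdc20 averaged 1.04 ± 0.408 TPM in Control and 2.51 ± 0.651 TPM in LLC (difference 0.79 ± 0.28, SE, adjusted p = 0.0414). Foxm1, a transcription factor of mitotic genes, averaged 0.400 ± 0.141 and 1.07 ± 0.0934 TPM (difference 0.57, adjusted p = 0.0245). Ube2c, the ubiquitin-conjugating enzyme of the anaphase-promoting complex, averaged 2.51 ± 0.921 and 4.52 ± 1.84 TPM (difference 0.64, adjusted p = 0.0395). Plk1, a mitotic kinase, averaged 0.715 ± 0.259 and 1.56 ± 0.451 TPM and missed the threshold (difference 0.58, adjusted p = 0.0618). Plk1 reached 1 TPM in 1 tumor-free and 4 tumor-bearing mice, so it entered the fit with the filter of 1 TPM through the latter. Foxm1, with a Control mean of 0.400 TPM, may have done so too.

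Of the 15 genes of G1 phase, in which a cell commits to division, 9 rose and 0 fell, beside 26.3% of all genes that rose (median 0.48). Cdk4, the kinase of the D cyclins, averaged 19.5 ± 1.67 TPM in Control and 25.3 ± 2.16 TPM in LLC (difference 0.36, adjusted p = 0.0128), and Ccnd3 rose by 0.47 (adjusted p = 0.0431). Ccnd1 (difference 0.58, adjusted p = 0.0603) and Ccnd2 (0.48, adjusted p = 0.0804) did not pass. Of the 19 CDK inhibitors and pocket proteins 6 rose and 1 fell, with a median of 0.27, a count near the 26.3% of all genes that rose. In LLC + rFibcd1 against LLC no gene of the 4 lists was called, beside 0.102% of all genes under this filter, so that count says little. The median differences were -0.29 (DNA replication), -0.27 (mitosis), -0.34 (G1) and -0.15 (inhibitors and pocket proteins), beside -0.11 over all genes. Differences were above 0 for 1 of 35, 1 of 58, 2 of 15 and 2 of 19 genes, in the same order.

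**Figure D5:**
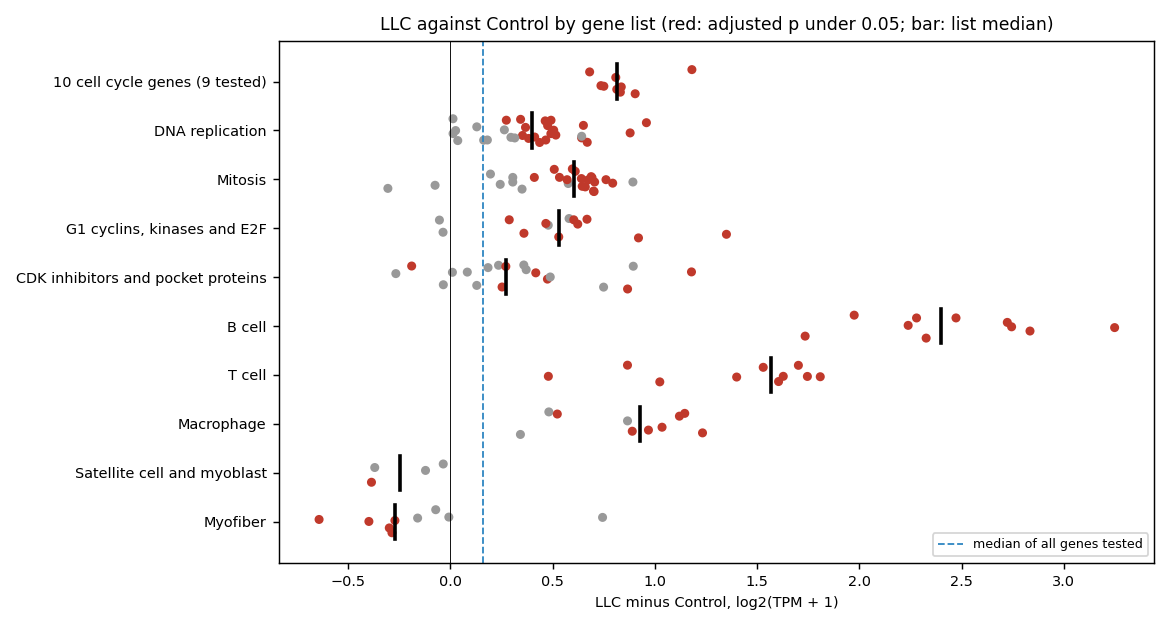
Difference between LLC and Control on the log2(TPM + 1) scale (horizontal axis) for the tested genes of each list (vertical axis), 1 point per gene, red where the adjusted p is under 0.05, with a black bar at the list's median and a dashed line at the median of all genes (0.16). Tested genes are those with at least 1 TPM in at least 3 mice, a filter that genes at low levels can pass through the tumor-bearing mice alone. For mitosis these are 26 of 58 genes, with a median of 0.60, against 0.43 for all 58 under the filter on the mean. The medians of the B cell and T cell lists lie to the right of those of the cell cycle lists, and the medians of the satellite cell and myofiber lists lie to the left of the dashed line, although Myh4, a fast myosin heavy chain of the myofiber list, lies to the right of it.

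Cdkn1a, which encodes the CDK inhibitor p21, had another order of groups than the 10 cell cycle genes. It averaged 15.9 ± 2.00 TPM in Control, 18.5 ± 11.4 TPM in Control + rFibcd1, 21 ± 4.5 TPM in LLC and 41.0 ± 7.19 TPM in LLC + rFibcd1 (SD). The 4 LLC + rFibcd1 mice lay between 30.7 and 47.5 TPM, the Control mice between 13.3 and 18.2 TPM and the LLC mice between 16 and 24.6 TPM. However, 1 Control + rFibcd1 mouse reached 34.6 TPM. The share of all genes with such separate ranges was not counted, and some genes of the other lists had them too. LLC + rFibcd1 exceeded Control by 1.31 ± 0.32 (SE, adjusted p = 0.0383), a direction called for 2.07% of genes. Of the 19 genes of this list, 1 was called higher and 1 lower in that comparison. Against LLC the difference was 0.94 ± 0.36 (adjusted p = 0.199), and LLC against Control gave 0.37 ± 0.34 (adjusted p = 0.407). Of the other inhibitors named, Cdkn1b (difference 0.18, adjusted p = 0.0831), Cdkn1c (-0.27, adjusted p = 0.0523) and Cdkn2c (0.89, adjusted p = 0.104) did not pass in LLC against Control.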

How the data were processed

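RNA of 17 diaphragms was sequenced as paired reads of 100 bases. According to the methods of the study, the authors trimmed the reads (quality Q20, at least 50 bases) and aligned them to GRCm38 (mm10) in CLC Genomics Workbench v12.0.1. The deposited values are TPM, which the authors obtained by dividing reads by gene length and scaling each sample to 1000000. The annotation release is not given in the sources used here. The sources name different library kits, 1 of them stranded, so reads of overlapping genes may not be told apart. Symbols were matched to GENCODE vM21 (45090 of 47643, 94.6%), and depth was estimated from the steps between low values, of which 82.1 to 85.6% fell within 0.02 of a whole read (4.0% for random values). Depth entered no test.

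Groups came from the sample labels. The 13305 genes that reached 1 TPM in 3 or more mice were fitted as log2(TPM + 1) in limma 3.58.1 (R 4.3.3), with the 4 groups in 1 model (13 residual degrees of freedom), moderated variances with a trend, two-sided tests and Benjamini-Hochberg adjustment at 0.05. Ccnb1 was tested by exact permutation. The fit was tested on simulated data. Alternatives changed the pseudocount (0.1 TPM), the filter, the scaling, the samples fitted, the test (Dunn's test, which the study used), a replicate block and marker scores as covariates, and left out each mouse in turn. Named genes are the 10 members, 4 fixed genes of each of 4 pathway lists and the 10 genes most alike in pattern; Slamf6, Cst7, Ckap2l, Foxm1, Pax7, Myod1 and Rgs13 come from those lists or from the markers. Members and lists were chosen with earlier results of these data known.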

Additional observations from a re-analysis of the deposited data

Results flagged for a closer look

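Among the 30 combinations of a cell cycle gene with a group of 4 or 5 mice, 3 held a mouse whose gap to its nearest neighbour, as a share of the group's range, exceeded Dixon's 95% value, where chance alone gives 1.5. Cdk1 in LLC + rFibcd1 replicate 3 was at 2.02 TPM (gap share 0.856, limit 0.829). Rrm2 in the same mouse was at 5.64 TPM (0.837). Top2a in Control + rFibcd1 replicate 1 was at 1.24 TPM (0.718, limit 0.71). The 10 genes moved together in these mice, so the combinations are not independent. LLC, with 3 mice, was not examined in this way.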

How the results depend on the processing

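In LLC against Control, 9 of 9 cell cycle genes tested were called, beside 29.7% of genes that rose. Quantile normalization left 3, beside 11.3%. A replicate block, the B cell score, the macrophage score (added after the data were seen) and Dunn's test each left 0, beside at most 0.0451%. A pseudocount of 0.1 TPM left 7 (beside 27.4%), with a median difference of 1.45 in place of 0.81, and rescaling without mitochondrially encoded genes left 7 (beside 18.7%). For the block and Dunn's test, 8 and 4 of the 9 had an unadjusted p under 0.05, with 5 and 0 genes called in all. Leaving out single mice gave 0 to 9, beside 0.114 to 33.3% of genes that rose. In tumor-bearing against tumor-free mice, 9 of 9 were called, beside 38.8% of genes that rose. The count was 5 with quantile normalization (13.7%), 5 with the replicate block (24.8%), 0 with the B cell score (3.43%) and 0 with the macrophage score (4.74%). It was 5 to 9 when single mice were left out (27 to 43.3%). LLC + rFibcd1 against LLC, LLC + rFibcd1 against Control, Control + rFibcd1 against Control and the interaction gave 0 under every setting run, beside at most 4.52% of genes. The cause of these shifts was not tested. No member's difference in LLC against Control or in tumor-bearing against tumor-free mice changed sign: of 170 values with a mouse left out 134 and 157 kept their side of the threshold, and of 105 and 87 under other settings 53 and 58 did. Equal replicate numbers did not pair mice: same-numbered mice had a median correlation of -0.06 over 22 pairs (-0.46 to 0.48), and 1 of 17 mice correlated best with its own number. Dunn's test has no form for the pooled contrast or the interaction and was not run there. Few reads per gene and 3 LLC mice limit the precision.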
